A study of Mus musculus with 12 samples.

Results

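The 10 genes described here mark inhibitory interneurons or encode neuropeptides, and were followed through the hippocampus of 2 mouse strains after knockdown (KD) of Hp1bp3. They were taken by symbol from the table of RSEM expected counts and number 10 of the 22236 genes listed. All 10 passed the filter on low counts and were among the 15853 genes tested. Gad1 and Gad2 make GABA, Pvalb encodes a calcium buffer of fast-spiking interneurons, and Sst, Vip, Npy, Cck, Tac1, Penk and Pdyn encode the precursors of somatostatin, vasoactive intestinal peptide, neuropeptide Y, cholecystokinin, substance P and neurokinin A, the enkephalins and the dynorphins.

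Hippocampal interneurons release GABA and are commonly sorted by the peptide or calcium-binding protein they also make. A neuropeptide is cut from a longer precursor, stored in dense-core vesicles and released mostly when a neuron fires in bursts, after which it acts on G protein-coupled receptors. Several of these genes are not confined to interneurons. Granule cells of the dentate gyrus make dynorphin and some enkephalin, Cck is also transcribed in pyramidal cells, and Npy and Penk are known to respond to neuronal activity and seizures.

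Male mice 3 to 5 months old were either C57BL/6J (B6) or DBA/2J (D2). They received AAV9-shRNA-Hp1bp3 (KD), a short hairpin RNA against the chromatin protein Hp1bp3, or the scrambled hairpin AAV-scrmb-shRNA (Ctrl), on both sides of the hippocampus, and tissue was taken at least 6 weeks later. Each of the 4 groups held 3 libraries, 1 mouse each, so the controls carried a virus and a hairpin as well and no uninjected mouse was among these libraries. The virus was delivered to the dorsal hippocampus while RNA came from the whole hippocampus, so tissue away from the injection is part of every value. In such bulk tissue, fewer cells of a type and less RNA per cell cannot be told apart.

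The libraries held 18.2 M to 39.4 M expected counts each (median 32.4 M), and levels are given as CPM, counts scaled to an equal library total with TMM factors. Hp1bp3 stood at 294 to 310 CPM in B6 Ctrl and at 185, 182 and 259 CPM in B6 KD. In D2 it stood at 215 to 234 CPM in Ctrl and at 177 and 163 CPM in KD libraries 1 and 2, but at 230 CPM in the library labelled D2 KD 3, within the control range. Where a knockdown value in D2 moved with that library, it is given with and without it. The edgeR test used below did not call Hp1bp3 itself in any KD comparison (adjusted p = 0.0760 in B6 and 0.0907 averaged over strains). Lists of pyramidal neuron and of granule and mossy fibre genes, 10 genes each and all above the filter, had mean levels of 7.42 to 7.81 and 4.81 to 5.70 on the log2(CPM + 1) scale, so genes of both principal cell types of the hippocampus were well above 0 in every library. A choroid plexus list of 12 genes ran from 1.72 to 5.35 (Ctrl) and 2.44 to 6.22 (KD) in B6 mice, and from 2.47 to 6.07 (Ctrl) and 1.72 to 6.11 (KD) in D2 mice, so these genes differed widely between libraries of the same group. In D2 Ctrl 3 the interferon response list was at 3.92, against 2.70 and 2.72 in the other D2 controls, and the astrocyte list was at 9.15 against 8.72 and 8.47.

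Short stretches of promoter are shown here for the genes whose levels differed most between groups and for those that hold a cyclic AMP response half-site, the sequence through which activity-driven transcription of peptide genes such as Sst is classically described. Sequences are from RefSeq, build GRCm38.p6, read on the strand of the gene, and 9 of the 10 genes had a window of 300 bases from 250 before to 50 after a start. Penk had none. The half-site TGACG, on either strand (CGTCA), was searched for, and the capitals mark it, or in Sst the whole palindrome TGACGTCA, which contains both. Sst lies on chr16:23890874-23890903 (minus strand), Vip on chr10:5639127-5639156 (plus), Tac1 on chr6:7555006-7555035 (plus), Cck on chr9:121495724-121495753 (minus) and Gad2 on chr2:22622282-22622311 (plus).
Sst: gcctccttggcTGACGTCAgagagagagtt
Vip: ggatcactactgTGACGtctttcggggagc
Tac1: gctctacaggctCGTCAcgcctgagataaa
Cck: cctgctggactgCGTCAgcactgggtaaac
Gad2: ccatttcccttcCGTCActctctcatctcc

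For Npy, chr6:49822610-49822709 (plus), and Pdyn, chr2:129699939-129700038 (minus), the 100 bases just before the RefSeq start are printed. Neither window held the half-site.
Npy: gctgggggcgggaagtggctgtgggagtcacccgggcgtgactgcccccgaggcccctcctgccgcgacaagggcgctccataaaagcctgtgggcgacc
Pdyn: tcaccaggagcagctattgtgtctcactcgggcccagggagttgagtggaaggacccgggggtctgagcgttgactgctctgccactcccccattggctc

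The half-site was present in windows of 5 of these genes and in 20.8% of all 32851 promoter windows, and the palindrome in 1 gene and 1.79% of windows. These are matches of letters in reference sequence, not measured binding sites.

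Per kilobase of exon (GENCODE M21), Sst was the most abundant transcript at 141 CPM per kb averaged over the 12 libraries, followed by Cck at 110 and Npy at 89.5. Gad1 (48.7), Penk (32.7), Gad2 (28.4) and Pvalb (20.3) were intermediate. The order at the top differed between groups, with Npy (143) above Sst (133) in B6 KD and Cck (116) about level with Sst (115) in D2 Ctrl. Vip at 5.45, Pdyn at 2.46 and Tac1 at 2.09 CPM per kb were far lower. The genes spanned different ranges across libraries. Gad2, Cck and Gad1 varied least, with the highest library 1.55, 1.57 and 1.66 times the lowest, whereas the ratio was 4.17 for Npy, 7.93 for Pdyn and 9.20 for Penk. In Penk, 233 exon bases are shared with an antisense transcript (A830012C17Rik), and whether counting used strand was not given in the sources used here.

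**Figure D1:**
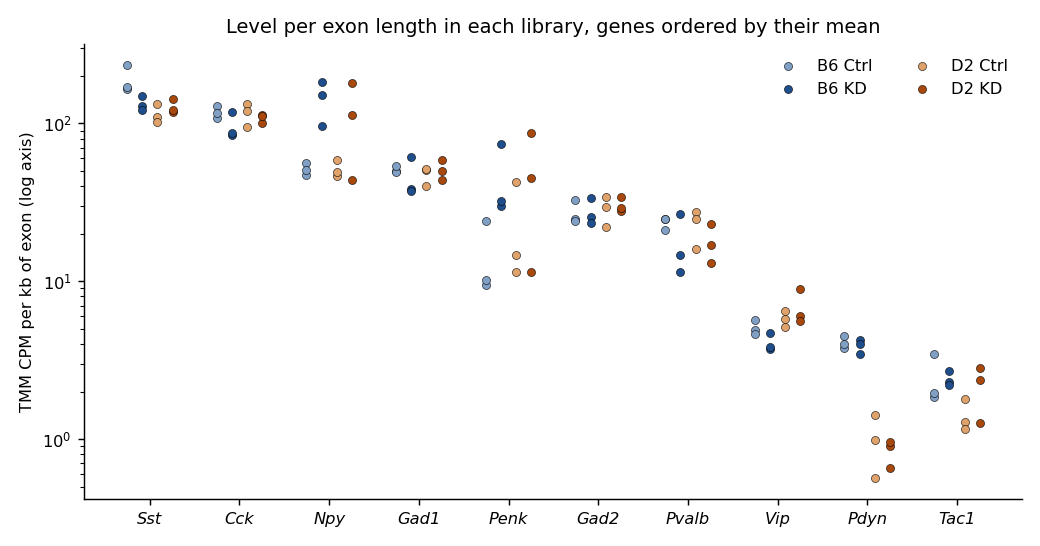
Level of each gene per kilobase of exon (TMM CPM per kb, log axis) in each of the 12 libraries, coloured by group, with genes ordered by their mean. Sst is highest on average at 141 CPM per kb and Tac1 lowest at 2.09, while Penk and Pdyn are the most spread out.

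What the knockdown did to these genes was asked in each strain and averaged over the strains. With all libraries, edgeR called no gene of the 10 at an adjusted p under 0.05 in any KD comparison. Its quasi-likelihood test called 0 of 10 averaged over strains (0% of all genes called), 0 of 10 in B6 (2.64% of all genes) and 0 of 10 in D2 (0% of all genes). At an unadjusted p under 0.05 there were 2 averaged over strains (Npy and Penk, 19.2% of all genes), 3 in B6 (Npy, Penk and Sst, 20.6%) and 1 in D2 (Npy, 2.85%). DESeq2 called 1 averaged over strains (Npy), 2 in B6 (Npy and Sst) and 0 in D2, while limma-voom called 0 in each. Across all genes, no call in B6 was left without B6 Ctrl 1, B6 Ctrl 3, B6 KD 1, B6 KD 2 or D2 Ctrl 1. The 418 calls made there with all libraries thus depend on which libraries are included. D2 Ctrl 1 is in neither of the B6 groups compared. Genes at an unadjusted edgeR p under 0.05 in B6 numbered 3262 with all libraries and 3256 without D2 Ctrl 1. Without each of the others named, they numbered 2231 to 3348.

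Npy (chr6:49822710-49829507, plus strand, GENCODE M21 on GRCm38), whose peptide dampens glutamate release, had the smallest adjusted p of the 10 genes in each KD comparison but that in D2, where all were 1. In B6 it was at 31.9, 26.5 and 28.5 CPM in Ctrl and at 85.6, 54.1 and 103 CPM in KD. D2 values were 26.1, 28.0 and 33.2 CPM in Ctrl, and in KD 63.8 and 102 CPM in libraries 1 and 2 but 24.7 CPM in the library labelled D2 KD 3. All 3 B6 KD libraries lay above all 3 B6 controls. The D2 groups overlapped only through the library whose Hp1bp3 level was in the control range. Within B6 KD, though, library 3 had both the highest Hp1bp3 (259 CPM) and the highest Npy. Whether Npy follows the degree of knockdown was not tested.

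The mean of Npy was 2.80 times as high in KD as in Ctrl in B6 (log2 fold change 1.48 ± 0.40 SE, edgeR adjusted p = 0.0714). In D2 it was 2.19 times as high (1.13 ± 0.40 SE, adjusted p = 1), or 2.86 times without the library labelled D2 KD 3. Averaged over strains the log2 fold change was 1.31 ± 0.29 SE (adjusted p = 0.0619), and an exact 2-sided permutation of treatment within strains gave p = 0.02, where 0.005 is the smallest of 400 assignments. Without the library labelled D2 KD 3, the averaged change was 1.5 (edgeR adjusted p = 0.00821) and that in B6 1.48 (adjusted p = 0.0187). Leaving it out also moved the calls over all genes, from 0 to 799 averaged over strains and from 418 to 673 in B6. The size of the Npy change in B6 stayed the same. Other single omissions weakened the Npy values. Without each library in turn, the averaged Npy change ran from 1.04 to 1.5 (edgeR adjusted p from 0.00821 to 0.161), called in 1 of 12 fits. In B6 it ran from 1.24 to 1.68 (adjusted p from 0.0187 to 0.222), called in 2 of 12. In D2 it ran from 0.605 to 1.52, never called. No difference between the strains in this response was called (interaction -0.35 ± 0.56 SE, adjusted p = 0.984).

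**Figure D2:**
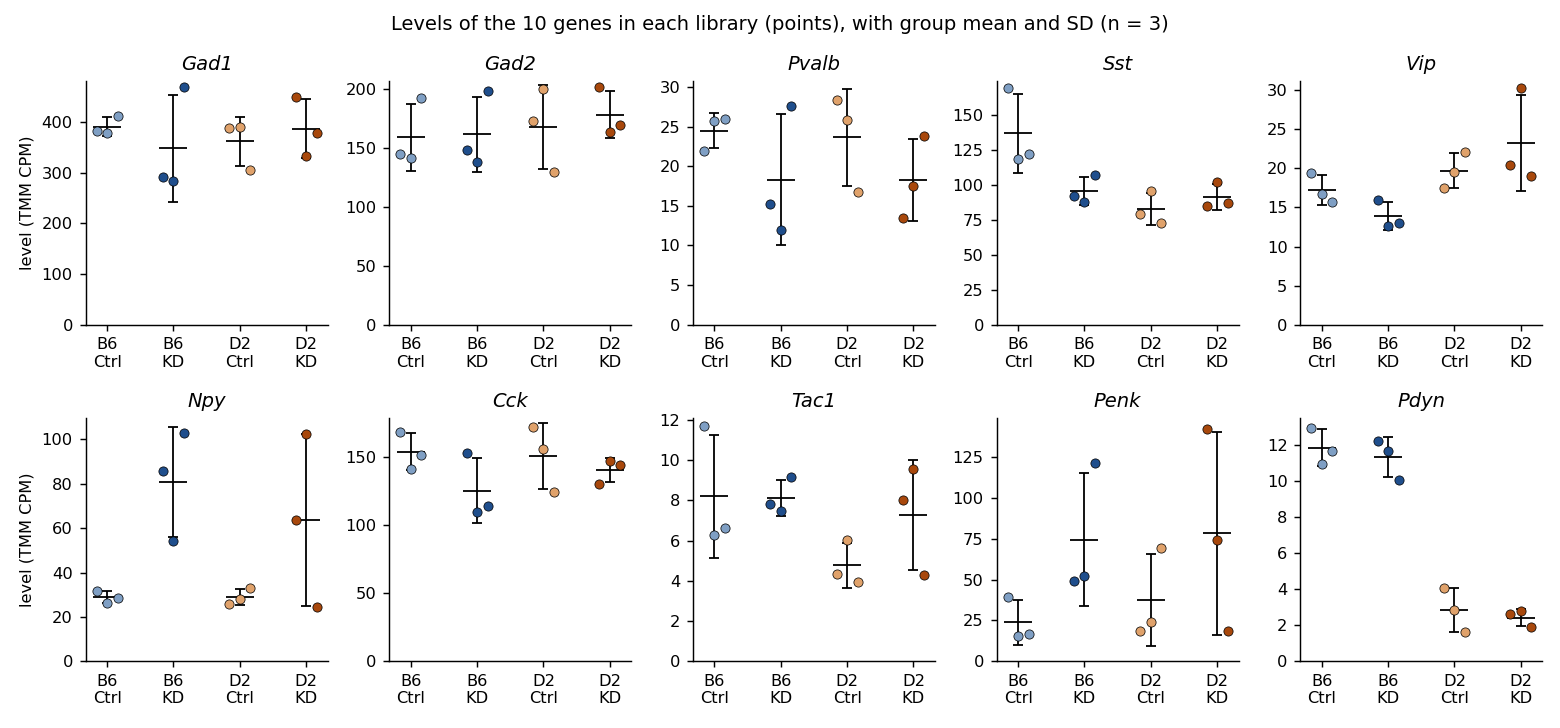
Level of each gene (TMM CPM, linear axis from 0) in each library (points) with the group mean and SD (bars, n = 3). Npy is at 54.1 to 103 CPM in B6 KD against 26.5 to 31.9 CPM in B6 Ctrl, and Pdyn is at 10.1 CPM or more in every B6 library and 4.09 CPM or less in every D2 library.

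Penk (chr4:4133531-4138819, minus strand), the enkephalin precursor, had the widest range of the 10 genes. In B6 it was at 39.5, 15.4 and 16.7 CPM in Ctrl and at 49.2, 52.4 and 121 CPM in KD, without overlap. D2 mice had 18.6, 24.1 and 69.5 CPM in Ctrl and 142, 74.1 and 18.6 CPM in KD. The D2 groups overlapped through the library labelled D2 KD 3, since D2 Ctrl 3, though high among the controls, was below D2 KD 1 and 2.

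The mean of Penk was 3.11 times as high in KD in B6 (log2 1.63 ± 0.73 SE, edgeR adjusted p = 0.237) and 2.09 times in D2 (1.06 ± 0.72 SE, adjusted p = 1). Averaged over strains, the change of 1.35 ± 0.51 SE had an adjusted p of 0.192 and an exact permutation p of 0.06, and without the library labelled D2 KD 3 it was 1.58 (adjusted p = 0.0690). In D2 the log2 value moved to 1.88 without D2 Ctrl 3, to 1.53 without the library labelled D2 KD 3 and to 0.29 without D2 KD 1, so single mice set its size. In B6 it moved to 1.06 without B6 KD 3. Penk is abundant in the neighbouring striatum, and a list of 12 striatum and septum genes, all above the filter, was at 3.21 to 3.61 (Ctrl) and 3.07 to 3.83 (KD) in B6 mice, and at 3.23 to 3.65 (Ctrl) and 3.19 to 3.58 (KD) in D2 mice. The group ranges of that list overlapped, but in B6 its genes moved both ways with KD. At an unadjusted edgeR p under 0.05 in B6, 1 was higher and 2 were lower, where 20.6% of all genes passed in either direction. With its score as a covariate, a setting chosen after seeing the data, the averaged Penk change was 1.26 (edgeR adjusted p = 0.246). The part of striatal tissue in the Penk values was not tested.

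The levels of Npy and Penk moved with those of other genes across the 12 libraries. Pearson's r between them on the log2(CPM + 1) scale was 0.80, the highest among the 45 pairs of these 10 genes. Of all genes tested, Rgs4 (r = 0.95), which encodes a regulator of G protein signalling, Gal (r = 0.95), the galanin precursor, and Col5a3 (r = 0.94) were most like Npy. Lrpap1, Slc7a4 and Prex1 were most like Penk, at r of 0.96, 0.95 and 0.94. These r values are descriptions over libraries that fall into 4 groups, and the genes were picked for them.

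Gal was picked for its likeness to Npy, so its values per library describe that likeness and are no further support for it. It was at 0.324, 0.0382 and 0.202 CPM in B6 Ctrl and at 4.48, 1.36 and 5.34 CPM in B6 KD. For D2 the values were 0.403, 0.226 and 2.07 CPM in Ctrl and 3.46, 7.26 and 0.221 CPM in KD. As for Npy, the library labelled D2 KD 3 was at the control level, and as for Penk, D2 Ctrl 3 stood above the other D2 controls. Neither comparison of Gal within a strain passed the test (edgeR adjusted p = 0.0825 in B6 and 1 in D2).

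A list of 16 interferon response genes was also higher in the B6 KD libraries and in D2 KD 1 and 2, with an order that differed between strains. Its mean level on the log2(CPM + 1) scale was 2.41 to 2.74 (Ctrl) and 4.83 to 6.38 (KD) in B6 mice, and 2.70 to 3.92 (Ctrl) and 2.98 to 5.02 (KD) in D2 mice. D2 Ctrl 3 was the highest D2 control and the library labelled D2 KD 3 the lowest D2 KD library. In B6, edgeR called 15 of the 16 genes higher with KD (2.64% of all genes called), and all 16 were higher at an unadjusted p under 0.05 (20.6%). In D2 it called 0 (0% of all genes), and 9 were higher at an unadjusted p under 0.05 (2.85%). Within B6 KD, library 3, with the lowest list level (4.83), had the highest Npy, Penk and Gal. Library 2, with the highest list level (6.38), had the lowest Npy and Gal. Within D2 KD, the list was at 5.02 in library 2, 4.50 in library 1 and 2.98 in library 3. Npy and Gal followed that order there, whereas Penk was highest in library 1. An 8-gene microglia list was at 4.69 to 4.92 in B6 Ctrl and 5.22 to 5.94 in B6 KD, with 1 gene called higher (Itgam), and at 4.52 to 5.30 and 4.61 to 5.33 in D2 Ctrl and D2 KD. The part of either list in the values of Npy and Penk was not tested. A list of 14 activity-regulated genes was at 5.12 to 5.33 in B6 Ctrl and at 4.64, 4.50 and 5.67 in B6 KD, and at 4.38 to 4.74 and 4.46 to 4.88 in D2 Ctrl and D2 KD. Its mean joins genes that moved in opposite directions. At an unadjusted edgeR p under 0.05 in B6, 3 were higher with KD (Bdnf, Nptx2 and Inhba) and 4 lower (Arc, Nr4a1, Npas4 and Dusp1), against 20.6% of all genes. In D2 there were 0. The part of neuronal activity in Npy and Penk was not tested.

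**Figure D3:**
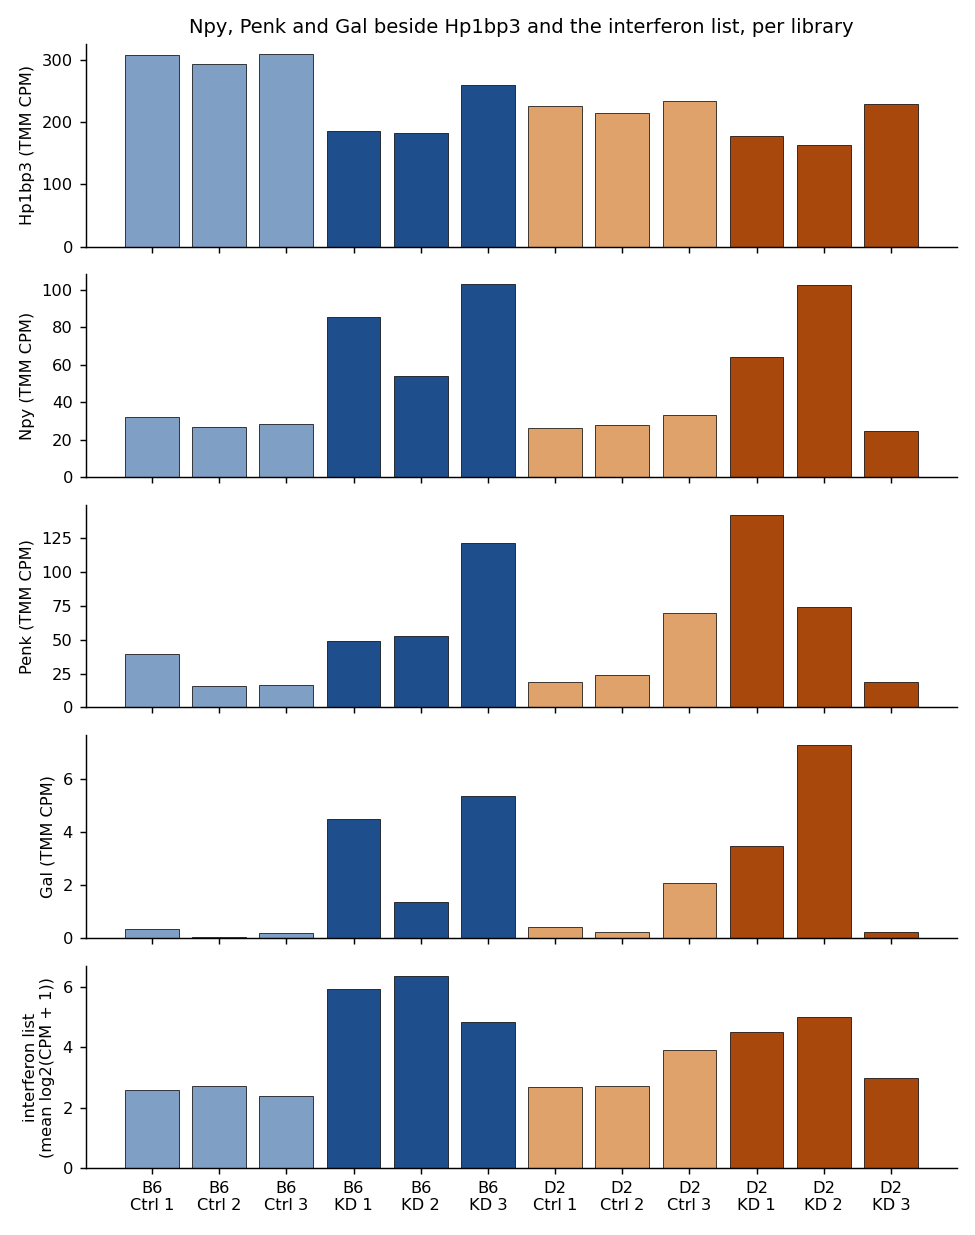
Hp1bp3, Npy, Penk and Gal (TMM CPM) and the mean log2(CPM + 1) of the 16 interferon response genes in each library, as bars from 0 coloured by group. In the library labelled D2 KD 3, Hp1bp3 is at 230 CPM, in the range of D2 Ctrl, and Npy at 24.7 CPM, just below its range there. Of the B6 KD libraries, library 3 has the highest Hp1bp3 and also the highest Npy, Penk and Gal. Penk, Gal and the interferon list are higher in D2 Ctrl 3 than in the other D2 controls.

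Sst (chr16:23889573-23890958, minus strand) marks dendrite-targeting interneurons, and its peptide inhibits release from many cells. It was at 170, 119 and 123 CPM in B6 Ctrl and at 92.6, 87.7 and 107 CPM in B6 KD, so the B6 groups did not overlap. In D2 it was at 79.7, 95.9 and 73.2 CPM in Ctrl and at 84.9, 102 and 87.1 CPM in KD, where they did. The KD mean was 0.70 times the Ctrl mean in B6 (log2 -0.52 ± 0.15 SE, edgeR adjusted p = 0.0915) and 1.10 times in D2 (0.14 ± 0.15 SE, adjusted p = 1). The interaction was 0.66 ± 0.22 SE, with an unadjusted edgeR p of 0.0119 and an adjusted p of 0.821. B6 Ctrl 1 was the highest library, and without it the value in B6 was -0.36 (adjusted p = 0.287).

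In all, 3 of the 10 genes had B6 KD and B6 Ctrl libraries that did not overlap (Npy and Penk higher, Sst lower), where 27.8% of all genes tested did so, and 0 did in D2, where 5.96% of all genes did. The share among these genes in B6 was close to that of all genes. No interaction was called for any of them (0% of all genes), 1 had an unadjusted p under 0.05 (Sst, against 5.91% of all genes), and DESeq2 and limma-voom called 0.

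The GABA-synthesizing enzymes gave no call with KD. Gad1 had means of 391 ± 18.8 (Ctrl) and 348 ± 105 CPM (KD) in B6 mice, and of 362 ± 48.5 (Ctrl) and 387 ± 58.5 CPM (KD) in D2 mice (SD, n = 3). Those of Gad2 were 160 ± 28.5 and 162 ± 32.1 CPM in B6 and 168 ± 35.6 and 179 ± 20.3 CPM in D2, with Ctrl first. Averaged over strains the KD difference was -0.04 ± 0.13 SE for Gad1 and 0.06 ± 0.13 SE for Gad2 on the log2 scale. Both genes were high in B6 KD 3 and D2 KD 1 and low in D2 Ctrl 3, and their r over the libraries was 0.79.

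Pvalb and Cck had lower means in KD in both strains without passing the test. Pvalb was at 22.0, 25.7 and 25.9 CPM in B6 Ctrl and at 15.2, 12.0 and 27.6 CPM in B6 KD, and at 28.4, 25.8 and 16.7 CPM in D2 Ctrl and 13.5, 17.5 and 23.8 CPM in D2 KD. B6 KD 3 and the library labelled D2 KD 3 were the highest Pvalb libraries of their KD groups, and D2 Ctrl 3 was the lowest D2 control. The averaged difference was -0.39 ± 0.22 SE (edgeR adjusted p = 0.353), or -0.51 (adjusted p = 0.207) with D2 KD 3 left out, and in D2 the KD mean was 0.77 times that of Ctrl with it and 0.66 times without it. For Cck, at 154 ± 13.8 CPM in B6 Ctrl and 126 ± 23.9 in B6 KD, it was -0.20 ± 0.10 SE (adjusted p = 0.330).

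The remaining peptides did not pass the test with KD either. Vip was at 19.4, 16.7 and 15.7 CPM in B6 Ctrl and 15.9, 12.6 and 13.1 CPM in B6 KD, and the B6 groups overlapped by a narrow margin. Tac1, the substance P precursor, was at 4.34, 6.06 and 3.93 CPM in D2 Ctrl and at 8.0 and 9.55 CPM in D2 KD 1 and 2 but 4.27 CPM in the library labelled D2 KD 3 (log2 0.62 ± 0.32 SE, edgeR adjusted p = 1). Without that library the value was 0.89 (adjusted p = 0.522), a KD mean 1.84 times that of Ctrl against 1.52 times with it. In B6, the Tac1 mean was 8.20 ± 3.04 CPM in Ctrl and 8.13 ± 0.894 CPM in KD (SD, n = 3). Pdyn was nearly level, at 0.95 times the Ctrl mean in B6 and 0.85 times in D2.

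**Figure D4:**
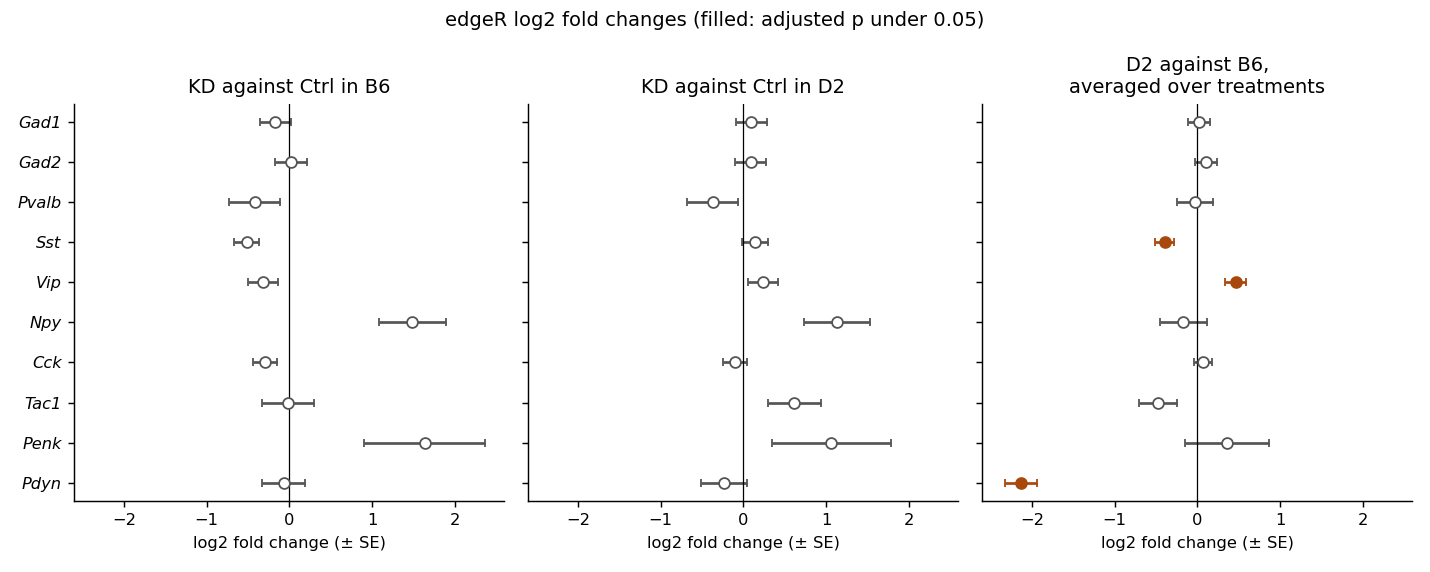
log2 fold change with its SE for each gene from the edgeR fit, for KD against Ctrl in B6 and in D2 and for D2 against B6 averaged over treatments, with filled points at an adjusted p under 0.05. Filled points occur in the strain panel (Sst, Vip and Pdyn, the last at -2.13), and Npy and Penk have the largest values in both KD panels.

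More of these genes were called between the strains than with KD. Averaged over treatments, edgeR called 3 of the 10 genes (21.3% of all genes tested), with Pdyn and Sst lower and Vip higher in D2. In the controls alone it called 2 (14.0% of all genes), Pdyn and Sst, both lower in D2. These shares are near those of all genes. D2 reads had been aligned to a D2 genome and B6 reads to a B6 one, so a difference in reference and a difference in RNA cannot be told apart for a strain comparison.

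Pdyn (chr2:129686565-129699844, minus strand), whose dynorphin peptides act on the kappa opioid receptor and are made by dentate granule cells, had the largest strain difference. Its levels were 12.9, 10.9 and 11.6 CPM in B6 Ctrl and 12.2, 11.6 and 10.1 CPM in B6 KD. In D2 they were 4.09, 2.83 and 1.63 CPM in Ctrl and 2.62, 2.76 and 1.90 CPM in KD. The lowest B6 library was above the highest D2 library. Over all libraries the B6 mean was 4.38 times the D2 mean.

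The log2 fold change of Pdyn in D2 against B6 was -2.13 ± 0.20 SE averaged over treatments (edgeR adjusted p = 1.07e-05) and -2.05 ± 0.28 SE in the controls (adjusted p = 0.00040). The exact permutation of strain within treatments gave 0.005, the smallest possible. Leaving out any 1 library kept the averaged value between -2.31 and -1.99, always called. The granule and mossy fibre list was at 5.51 to 5.70 in B6 Ctrl and 5.19 to 5.44 in B6 KD, and at 4.87 to 5.54 and 4.81 to 5.26 in D2 Ctrl and D2 KD, and its part in the Pdyn difference was not tested. The median log2 difference of that list between strains, averaged over treatments, was -0.06, and it joins genes that differed in opposite directions. Of its 10 genes, 1 was called lower in D2 (Prox1) and 1 higher (C1ql3), where 21.3% of all genes were called. The genes most like Pdyn over the 12 libraries were Vps36, Prrt1 and Nlrc3 (r = 0.99, 0.98 and 0.98), which separate the strains too.

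Sst was lower in D2. The controls were at 137 ± 28.3 CPM in B6 and 82.9 ± 11.7 CPM in D2 (SD, n = 3), a B6 mean 1.65 times that of D2 (log2 -0.73 ± 0.16 SE for D2 against B6, edgeR adjusted p = 0.00810). The KD groups lay closer together, at 95.8 ± 10.2 CPM in B6 and 91.4 ± 9.49 CPM in D2. Averaged over treatments, the difference was -0.40 ± 0.11 SE (adjusted p = 0.0229), and exact permutation gave p = 0.025. The difference in controls stayed called without each library in turn (-0.84 to -0.54). The averaged one lost its call without B6 Ctrl 1, B6 KD 3, D2 Ctrl 1, D2 Ctrl 3, D2 KD 1 or the library labelled D2 KD 3, with adjusted p-values up to 0.0669.

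Vip (chr10:5639218-5647617, plus strand), which marks interneurons that mostly inhibit other interneurons, was higher in D2. It was at 17.5, 19.5 and 22.0 CPM in D2 Ctrl and at 20.5, 30.3 and 19.0 CPM in D2 KD, and the D2 mean over all libraries was 1.38 times that of B6. The difference averaged over treatments was 0.47 ± 0.13 SE (edgeR adjusted p = 0.0211, exact permutation p = 0.01), with D2 KD 2 the highest library. Without B6 KD 2 or without D2 Ctrl 3 the adjusted p was 0.0513 and 0.0503. In controls alone the difference was 0.19 ± 0.18 SE (adjusted p = 0.620).

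Tac1 had D2 controls below all B6 controls, at 3.93 to 6.06 CPM against 6.27 to 11.7 CPM, without passing the test (log2 -0.79 ± 0.32 SE, edgeR adjusted p = 0.160). In the controls, 3 of the 10 genes did not overlap between strains (Pdyn, Sst and Tac1, each lower in D2), where 31.7% of all genes did so. Over all libraries 1 gene did not (Pdyn), where 14.5% of all genes did so. For Gad1, Gad2, Pvalb, Cck, Npy and Penk the averaged strain differences were 0.02 ± 0.13, 0.11 ± 0.13, -0.03 ± 0.22, 0.07 ± 0.10, -0.17 ± 0.28 and 0.36 ± 0.51 (log2 ± SE), each within 1 SE of 0 and none called.

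Other genes of interneurons, of peptide handling and of GABA metabolism were read as lists beside the 10. Of 34 other interneuron genes, all tested, edgeR called 0 with KD in B6, 0 in D2 and 0 averaged over strains. At an unadjusted p under 0.05 there were 11 lower and 1 higher in B6 (20.6% of all genes in either direction), 0 in D2 (2.85% of all genes), and 5 lower and 1 higher averaged over strains (19.2% of all genes). The median log2 fold change of the list was -0.23 in B6 and 0.04 in D2, where the median of all genes was 0.0025 and 0.0041. Lists of 10 pyramidal neuron and 10 all-neuron genes had medians of -0.25 and -0.15 in B6, so other neuronal lists had medians below 0 as well.

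Between strains, 8 of these 34 genes were called averaged over treatments, 7 lower and 1 higher in D2, a share near the 21.3% of all genes. Erbb4, a neuregulin receptor of interneurons, was at 55.5 ± 8.27 CPM in B6 Ctrl and 1.59 ± 0.289 CPM in D2 Ctrl (SD, n = 3), a log2 difference of -4.75 ± 0.17 SE averaged over treatments (edgeR adjusted p = 5.00e-09). Nos1, neuronal nitric oxide synthase, was lower by -1.10 ± 0.07 SE and Adarb2, a marker of caudally derived interneurons, by -0.97 ± 0.14 SE, both averaged over treatments. Nkx2-1, the transcription factor that specifies medially derived interneurons, was higher by 1.30 ± 0.34 SE averaged over treatments, and was at 0.355 CPM in B6 Ctrl and 0.636 CPM in D2 Ctrl (not called in controls, adjusted p = 0.359).

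Of 34 other neuropeptide precursors, 24 passed the filter. With KD in B6, 1 was called, where 2.64% of all genes were. It was Apln (apelin), which fell from 24.0 ± 1.57 to 13.4 ± 3.35 CPM (log2 -0.85 ± 0.19 SE, edgeR adjusted p = 0.0477). In D2 it was at 20.6 ± 0.540 CPM in Ctrl and 18.1 ± 3.95 CPM in KD (adjusted p = 1). At an unadjusted p under 0.05 there were 5 higher and 2 lower in B6 (20.6% of all genes in either direction) and 1 higher in D2 (2.85%). Averaged over strains there were 7 higher and 1 lower (19.2%), so Apln ran against most of the genes at that level. The median log2 fold change of the 24 was 0.24 in B6 and 0.47 in D2. Between strains averaged over treatments 2 were called, where 21.3% of all genes were. Cort, a peptide related to somatostatin, was lower in D2 (-2.10 ± 0.30 SE) and Scg3, a granin of dense-core vesicles, was higher (0.34 ± 0.11 SE). Cort was at 5.09 ± 0.873 CPM in B6 Ctrl and 0.745 ± 0.429 CPM in D2 Ctrl, a log2 difference in controls of -2.81 ± 0.45 SE (edgeR adjusted p = 0.00117), where Scg3 was not called (adjusted p = 0.123).

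Of 10 genes that process peptide precursors, 0 were called with KD in either strain by edgeR (2.64% of all genes in B6, 0% in D2). At an unadjusted p under 0.05, 2 were lower in B6 (20.6% of all genes in either direction) and 1 in D2 (2.85%). Between strains 1 was called, in controls (14.0% of all genes) and averaged over treatments (21.3%). It was Scg5, a chaperone of the proprotein convertase Pcsk2, at 129 ± 2.51 CPM in B6 Ctrl and 338 ± 45.4 CPM in D2 Ctrl (log2 1.39 ± 0.11 SE in controls, edgeR adjusted p = 7.73e-06, and 1.58 ± 0.08 SE averaged over treatments, adjusted p = 7.27e-08). Of 22 receptors of these peptides, 21 were in the table and 18 were tested, and 0 were called with KD. At an unadjusted p under 0.05, 3 receptors were lower in B6 (20.6% of all genes in either direction) and 0 in D2 (2.85%). Between strains averaged over treatments 3 receptors were called, where 21.3% of all genes were. The VIP receptor Vipr2 (1.87 ± 0.25 SE) and the somatostatin receptor Sstr1 (1.56 ± 0.18 SE) were higher in D2, and Sstr2 was lower (-1.07 ± 0.33 SE, not called in controls alone). Sstr1 was at 13.9 ± 3.25 CPM in B6 Ctrl and 38.8 ± 10.4 CPM in D2 Ctrl, opposite in direction to Sst.

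Of 9 genes for GABA synthesis, transport and breakdown, 1 was called with KD in B6, where 2.64% of all genes were. Slc6a11, a GABA transporter found mainly in astrocytes, fell from 179 ± 14.2 to 111 ± 16.7 CPM (log2 -0.69 ± 0.15 SE, edgeR adjusted p = 0.0450). In D2 it was at 180 ± 16.2 CPM in Ctrl and 149 ± 31.1 CPM in KD (-0.27 ± 0.15 SE, adjusted p = 1), and no interaction was called for it. The 8-gene astrocyte list was at 8.44 to 8.46 in B6 Ctrl and 8.66 to 9.0 in B6 KD. Of its genes, Gfap had a log2 fold change of 1.70 without being called and Aqp4 was the 1 called higher (edgeR adjusted p = 0.0326), the median was 0.11, and Aldoc (-0.38), Slc1a2 (-0.16) and S100b (-0.14) had values below 0. The calls of Apln and Slc6a11 were both close to the threshold and, as for all genes, were lost without any of the 5 libraries named above.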

How the data were processed

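Hippocampal mRNA of 12 mice was sequenced. The authors trimmed the reads, aligned them to the genome of each mouse's strain and estimated expression (RSEM 1.2.12, Bowtie2 2.2.0). For most libraries, reads of an initial and a repeat run had been joined. The deposited expected counts are not normalized. The deposited signal table, the authors' normalized counts, equalled these counts without decimals divided by 1 factor per library (100% of values whole within 0.01) and was not tested. The submitters' processing notes name GRCm38, and the annotation release was not given in the sources used here. In the table, 27 symbols had become dates and were read by identifier.

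Expected counts were rounded, filtered with filterByExpr and fitted with the edgeR 4.0.16 quasi-likelihood test (R 4.3.3, TMM, robust), with a mean for each of the 4 groups. Benjamini-Hochberg adjustment ran over all 15853 genes in each of 6 comparisons, at a threshold of 0.05. Depth was 18.2 M to 39.4 M counts per library. DESeq2 1.42.0, limma 3.58.1 and other settings were alternatives. Scripts were tested on simulated data. The members and lists were chosen with earlier results of these data known. Named were the 10 genes, Hp1bp3, list genes called with KD, the 4 largest called per list between strains, and the 3 genes most like a member. Replicate numbers follow the order of deposit and pair nothing.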

Additional observations from a re-analysis of the deposited data

How the results depend on the processing

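No paired analysis was possible because the replicate numbers follow the order of deposit. The number of the 10 genes called with KD averaged over strains, 0 by edgeR, was 1 by DESeq2 and ran from 0 to 1 without each library in turn. In B6 it was 2 by DESeq2 and ran from 0 to 1, with Npy called without D2 KD 2 or the library labelled D2 KD 3. The number called between strains averaged over treatments ran from 1 to 3, lowest without D2 Ctrl 3. With the total count as a covariate Sst lost its averaged strain call (adjusted p = 0.0541). Over all genes, calls with KD in B6 numbered 418 by edgeR, 1688 by DESeq2, 329 by limma-voom, 612 by the newer quasi-likelihood method, 0 with the total count, the choroid plexus score or the striatum and septum score as a covariate, and 0 to 790 without 1 library. Averaged over strains they numbered 0, 1241, 0 and 15 by the same 4 fits and 0 to 799 without 1 library. DESeq2 called 11 interactions and 1 gene with KD in D2. Dropping decimals and the striatum and septum score were alternatives chosen after seeing the data.

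The values compared were those of 49 member results. For the interaction only Npy, Penk, Sst and Vip were counted, and for the strains in Ctrl only Pdyn, Sst, Vip, Tac1 and Npy. Of 539 member values under the 11 settings with all libraries, 525 kept their direction and side of the threshold. Without 1 library, 542 values did so, while 35 turned direction, 8 lost a call and 3 gained one. Some directions turned, in values that were not called, and the cause was not tested. For KD in B6, Gad2 was -0.0015 by DESeq2, -0.0014 with RLE size factors and -0.0095 with the striatum and septum score. Tac1 was 0.028 by limma-voom, 0.0031 with the total count and 0.15 with the choroid plexus score, and Pdyn was 0.11 with that score. Between strains, Npy in Ctrl was -0.0013 by limma-voom, and averaged over treatments Pvalb was 0.067 with the total count and Gad1 -0.0023 with the choroid plexus score.

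Without 1 library, the averaged KD value ran from -0.19 to 0.019 for Gad1, -0.053 to 0.13 for Gad2, -0.16 to 0.024 for Vip and -0.30 to 0.016 for Pdyn. In B6 it ran from -0.18 to 0.15 for Gad2 and -0.20 to 0.31 for Tac1, and in D2 from -0.036 to 0.19 for Gad1, -0.064 to 0.24 for Gad2 and -0.52 to 0.13 for Pdyn. The interaction ran from -0.88 to 0.033 for Npy and -1.31 to 0.24 for Penk. Between strains, Npy in Ctrl ran from -0.10 to 0.086, and averaged over treatments Gad1 ran from -0.038 to 0.17, Pvalb from -0.14 to 0.20, Npy from -0.43 to 0.023 and Penk from -0.048 to 0.65. Counting error is largest, relative to the level, for Pdyn and Tac1, which had the lowest CPM.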

Other observations

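For the other 7 genes, the transcripts with the most similar levels over the 12 libraries were as follows, by Pearson's r on the log2(CPM + 1) scale and with no test. Gad1 was nearest to Brsk2, Grin1 and Pik3r2 (r = 0.94, 0.92 and 0.92), and Gad2 to Pafah1b2, Tomm70a and Dclk1 (0.97, 0.94 and 0.93). Pvalb was nearest to Rtn4, Zdhhc9 and Prdm8 (0.96, 0.95 and 0.93). Sst was nearest to the potassium channel gene Kcnf1 (0.93), Loh12cr1 (0.91) and Cntrob (0.89). Vip was nearest to Gng3, Elp3 and Wrb (0.95, 0.94 and 0.94), Cck to Spag5, Car4 and Tex40 (0.92, 0.91 and 0.90), and Tac1 to 3110035E14Rik, Glra2 and Riok2 (0.93, 0.91 and 0.91). No gene here was a marker in the interneuron list, and Grin1 encodes an NMDA receptor subunit found in most neurons. Among the 10 genes themselves, Sst and Tac1 had an r of 0.68 and Sst and Pdyn 0.64, pairs whose means are lower in D2 for both genes.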
